A study of Mus musculus with 14 samples.

Results

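Interferon-stimulated genes are the genes that cells switch on when they sense an interferon, and 47 of them were examined here in RNA sequencing counts of sorted mouse bone marrow cells. The members were a fixed list of gene symbols, and all 47 were found once each among the 55335 genes of the table. All 47 also passed the expression filter that left 21509 genes to test. The list holds 3 transcriptional regulators (Irf7, Irf9 and Stat2), 5 sensors of foreign RNA or DNA, 4 Ifit genes, 5 Oas genes, 9 antiviral effectors, 5 genes of the ISG15 system and its ubiquitin ligases, 3 Parp genes, 7 further inducible genes, 4 interferon-induced GTPases and 2 subunits of the immunoproteasome.

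The mice carried a Cre recombinase driven by the Cdh5 promoter and a Rosa26 reporter that makes tdTomato, in all groups alike, and the sort had kept cells without lineage markers or CD45 that carried tdTomato. The 14 libraries fall into 4 groups. The untreated group has 4 libraries. The total body irradiation group (TBI, 500 cGy from a caesium source) has 5. The IgG RIT group received 20 µCi of radioimmunotherapy, an antibody carrying a radionuclide, on a non-targeting IgG (3 libraries), and the CD45 RIT group received 20 µCi on an antibody to CD45, the surface protein of blood cells (2 libraries). Treated mice were harvested 8 days after treatment. TBI replicates are numbered 1, 3, 4, 5 and 6 in the labels, and replicate 2 was not analysed here. The labels give no age or sex, and nothing in them says that replicates came from separate mice, so the p-values measure the spread between these libraries, which may be technical. A Cre driven by Cdh5 during development also marks blood cells that descend from endothelium, so the reporter alone does not define an endothelial cell.

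The labelled cell type was checked against marker genes. Cdh5, which defines endothelium, had between 0 and 6 counts in every library and did not pass the filter, and 13 of 17 endothelial markers were tested. The summed endothelial level was 185 to 225 CPM (counts scaled to a common library size, in the usual unit of counts-per-million) in untreated, 68.6 to 156 in TBI, 64.6 to 74.8 in IgG RIT and 82.4 and 258 in CD45 RIT libraries. The 12 erythroid markers, haemoglobin genes among them, summed to 8112 to 15071 CPM in untreated libraries, 25540 to 44386 in 4 TBI libraries, 175775 in TBI replicate 6, 134051 to 142116 in IgG RIT and 191995 and 47406 in CD45 RIT libraries. The 16 stromal markers summed to 3665 to 9738, 1160 to 2721, 455 to 1403 and 36711 and 64674 CPM in untreated, TBI, IgG RIT and CD45 RIT libraries, and the 10 haematopoietic progenitor markers to 9386 to 11560, 168 to 1480, 585 to 776 and 216 and 112 CPM. So TBI replicate 6 had an erythroid level above the IgG RIT range and far above the other TBI libraries, and both CD45 RIT libraries differed from the other 12 in their stromal level. Total counts were lowest in TBI replicate 6 (16412779) and highest in untreated replicate 1 (31077588), and a floor of 3 counts corresponds to 0.0786 to 0.215 CPM.

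Type I interferons bind the receptor of Ifnar1 and Ifnar2, and the kinases Jak1 and Tyk2 then pass the signal on to STAT2. STAT2 joins IRF9 in a complex that binds the interferon-stimulated response element (ISRE) in the promoters of many interferon-stimulated genes. Interferon gamma acts through its own receptor and a different promoter element, the gamma-activated site (GAS). IRF7 is both a target of the pathway and a factor that raises further interferon production. In bone marrow, interferons are known for pushing resting stem cells into division and for restraining blood formation.

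Part of the members carry the letters of the ISRE in their promoters. In the 250 bases before each RefSeq start (GRCm38.p6), ISRE letters, GAAANNGAAA or TTTCNNTTTC so that both strands are covered, stood in 14 of 41 windows of the 35 members with a RefSeq promoter (34.1%) and in 978 of 32851 windows of all genes (2.98%). GAS letters, TTCNNNGAA, which read alike on both strands, stood in 7 of 41 member windows (17.1%) and 2306 of 32851 of all (7.02%). Overlapping matches were all counted, and 3 members had both motifs. Stretches from 6 members are printed here because they stand for the response patterns described next: Isg15, Rsad2 and Oas3 were called higher in both RIT groups than in untreated libraries, Ifit1 and Ifit3 in CD45 RIT only among the comparisons with untreated, and Bst2 was called lower in IgG RIT and higher in CD45 RIT. Capitals mark the ISRE letters, and each stretch lies outside annotated exons, on the strand of its gene. They come from chr4:156200845-156200946 (minus strand), chr12:26456533-26456622 (minus), chr5:120777695-120777784 (minus), chr19:34640744-34640843 (plus), chr19:34583323-34583446 (plus) and chr8:71537557-71537652 (minus).
Isg15: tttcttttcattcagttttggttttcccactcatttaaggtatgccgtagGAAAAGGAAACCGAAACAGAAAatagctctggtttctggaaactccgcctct
Rsad2: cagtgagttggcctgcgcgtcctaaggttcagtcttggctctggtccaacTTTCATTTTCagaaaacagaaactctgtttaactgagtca
Oas3: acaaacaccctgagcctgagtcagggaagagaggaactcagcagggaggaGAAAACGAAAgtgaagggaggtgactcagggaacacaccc
Ifit1: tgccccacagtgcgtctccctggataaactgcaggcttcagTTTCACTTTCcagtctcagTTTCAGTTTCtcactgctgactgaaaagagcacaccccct
Ifit3: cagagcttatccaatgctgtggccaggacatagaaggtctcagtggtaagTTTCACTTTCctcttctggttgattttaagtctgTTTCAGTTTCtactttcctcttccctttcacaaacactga
Bst2: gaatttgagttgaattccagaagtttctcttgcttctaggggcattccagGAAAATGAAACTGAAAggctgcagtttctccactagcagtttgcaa

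In Isg15 3 matches overlap, in Bst2 2 overlap, and Ifit1 and Ifit3 hold 2 separate ones. The first match begins 78 bases before the start in Isg15, 120 in Rsad2, 75 in Oas3, 104 in Ifit1, 156 in Ifit3 and 130 in Bst2. ISRE letters were found in 3 of the 8 members called higher in IgG RIT than in untreated libraries that have a window, in 3 of the 6 called lower there, and in 12 of 21 called higher in CD45 RIT. The windows of Irf7, Irf9, Isg20, Psmb8 and Lgals3bp did not hold these letters. A match is only a description of letters, and no match says only that these letters are not in that window.

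**Figure D1:**
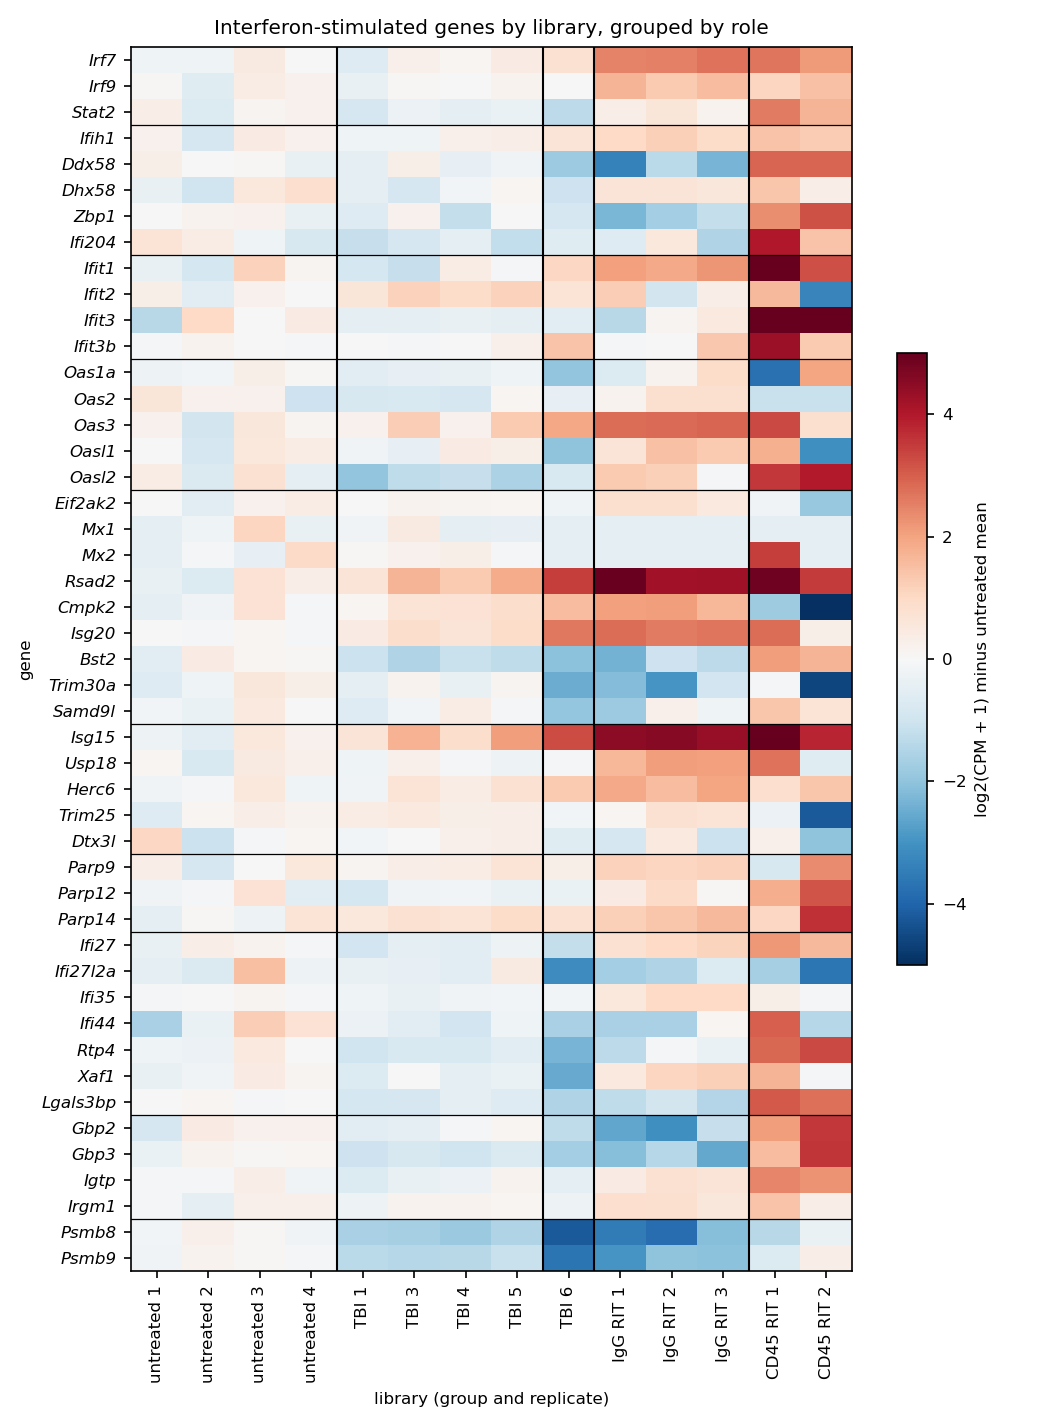
Level of each of the 47 interferon-stimulated genes (rows, grouped by role) in each of the 14 libraries (columns), as log2(CPM + 1) minus the mean of the 4 untreated libraries; red is higher and blue lower. The 3 IgG RIT columns are red at Irf7, Irf9, Rsad2, Isg20 and Isg15 and blue at Ddx58, Gbp2, Gbp3, Psmb8 and Psmb9, and TBI replicate 6 is drawn apart from the other 4 TBI libraries.

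The summed level of the 47 genes was 1963 to 2448 CPM in untreated libraries, 1442 to 2099 CPM in 4 TBI libraries, 2289 CPM in TBI replicate 6, 3700 to 4146 CPM in IgG RIT libraries and 5797 and 4171 CPM in CD45 RIT libraries. All 5 RIT libraries lay above all 9 others. These sums use total counts, without the scaling factors (TMM) used for single genes. Without Rsad2 and Isg20, a choice made after seeing the data, the other 45 genes came to 1699 to 2105 CPM in untreated and 809 to 1450 CPM in TBI libraries. They came to 1584 to 1936 CPM in IgG RIT and 3632 and 3435 CPM in CD45 RIT libraries. IgG RIT then overlapped untreated on total counts. The TMM factors were 0.798 to 0.876 in IgG RIT and 1.15 to 1.23 in untreated libraries. Scaled by them, the 45-gene sums of IgG RIT would lie above those of untreated. In bulk samples fewer cells of a type and less RNA per cell cannot be told apart, here or in any value that follows. On total counts TBI replicate 6, with an erythroid level above that of the IgG RIT libraries, had a summed interferon-stimulated level within the range of the untreated libraries. Without Rsad2 and Isg20 it had 809 CPM, the lowest such sum of all 14 libraries. Its TMM factor was 0.849, against 1.07 to 1.19 in the other TBI libraries. Scaled by the TMM factors, its 47-gene sum would lie above the untreated range, and its 45-gene sum would not be the lowest.

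**Figure D2:**
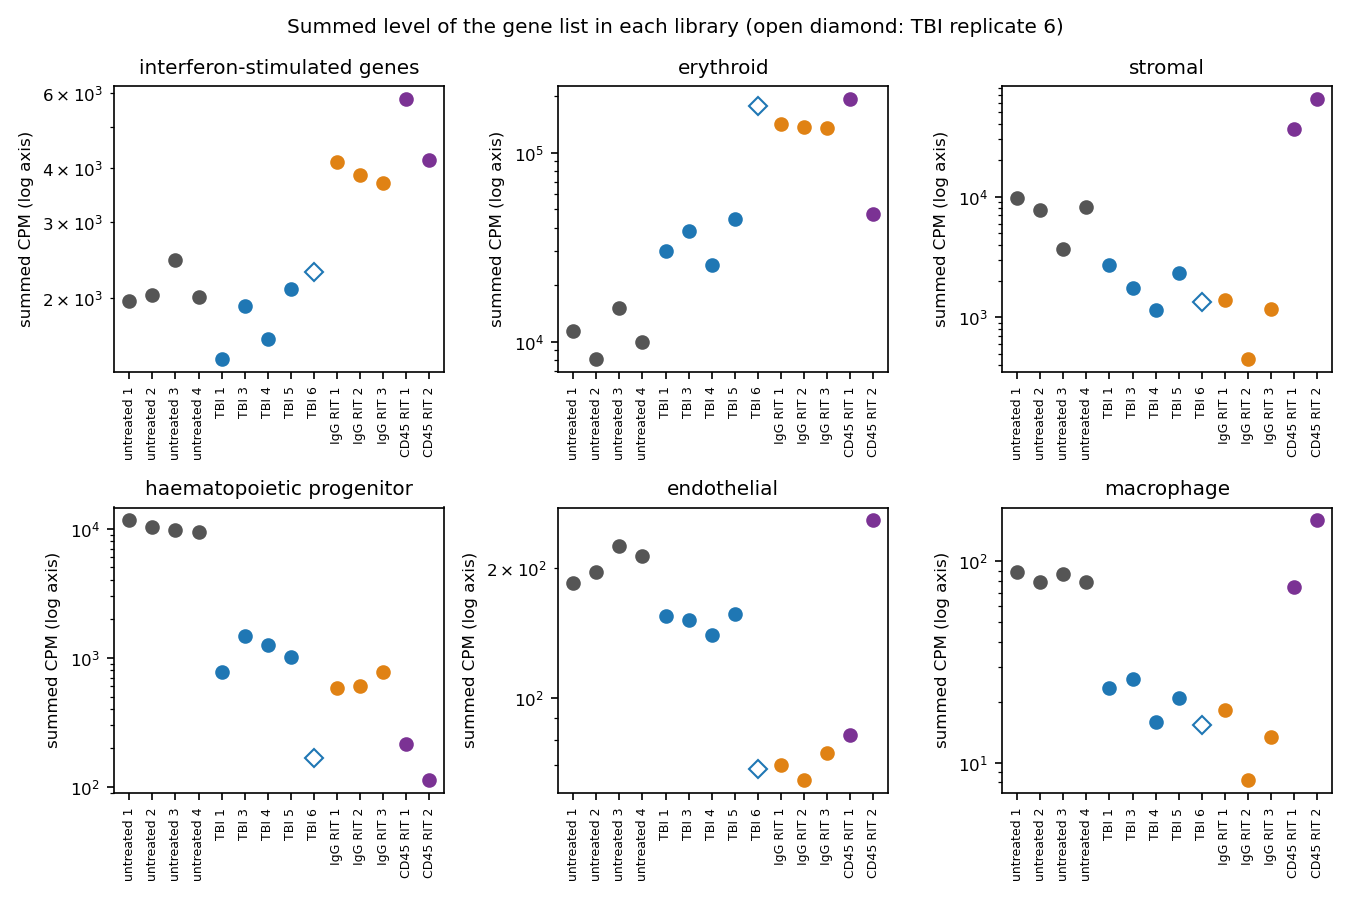
Summed CPM (log axes, which differ between panels) of the 47 interferon-stimulated genes and of 5 marker lists in each library; the open diamond is TBI replicate 6. TBI replicate 6 stands at 2289 CPM for the interferon-stimulated genes, below the 3 IgG RIT libraries at 3700 to 4146, and at 175775 CPM for the erythroid markers, above the IgG RIT libraries at 134051 to 142116.

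Against untreated libraries, IgG RIT libraries had higher levels of the regulators Irf7 and Irf9 and of Isg15, Rsad2, Isg20, Oas3, Usp18, Herc6, Ifi27 and Ifi35, and lower levels of Psmb8, Psmb9, Gbp2, Gbp3, Bst2 and Lgals3bp. Thus 10 members rose and 6 fell by edgeR's quasi-likelihood test (Benjamini-Hochberg adjusted p under 0.05 over 21509 genes), in a comparison where 16.4% of all genes were called, 5.75% higher and 10.7% lower. Among the members the shares were 34.0%, 21.3% and 12.8%. The median log2 fold change of the 47 was 0.51, and over all genes tested it was -0.42. Erythroid marker levels moved with this comparison (8112 to 15071 CPM against 134051 to 142116 CPM), as did the progenitor markers, and their part in the result was not tested. Leaving out a single library ended the call of Usp18 (adjusted p up to 0.0914), Gbp2 (up to 0.115), Ifi27 (up to 0.0747), Bst2 (0.0539 without IgG RIT replicate 1), Gbp3 (0.0555 without the same library) and Psmb9 (0.0562 without it).

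Against untreated libraries, CD45 RIT libraries had higher levels in 9 of the 10 roles: all 3 regulators, 4 of 5 sensors, 3 of 4 Ifit genes and all 4 GTPases rose. In all, 27 members rose and 1, Oas2, fell, where 33.1% of all genes were called, 14.5% higher and 18.6% lower; the call of Oas2 rests on 0 counts in both libraries. The median log2 fold change was 1.87 for the members and -0.37 for all genes. Stromal markers were higher in CD45 RIT (3665 to 9738 CPM against 36711 and 64674 CPM), as were erythroid markers (8112 to 15071 CPM against 191995 and 47406 CPM), and progenitor markers were lower (9386 to 11560 CPM against 216 and 112 CPM). Their part in the result was not tested. The macrophage sum was 78.9 to 88.6 CPM in untreated libraries and 74.4 and 159.5 CPM in CD45 RIT, and its single markers went both ways. Adgre1 had 0 counts in both CD45 RIT libraries, as in all IgG RIT libraries, and Csf1r had 43 and 60 (1154 to 1935 in untreated). C1qb had 303 and 1173 counts in CD45 RIT (0 to 37 in untreated) and Axl 536 and 903 (86 to 217). The 2 CD45 RIT libraries differed from each other (correlation of log2 CPM across genes 0.673). Among the members with values given here, those that lost the call against untreated without CD45 RIT replicate 1 were Usp18, Isg20, Oas3, Irgm1, Ifi204 and Ifit3b, and without CD45 RIT replicate 2 Parp14, Gbp2, Herc6 and Zbp1.

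Few of these genes were called in TBI against untreated libraries. Isg15 rose and Psmb8, Bst2 and Lgals3bp fell, which makes 4 of 47 members (8.51%) where 4.31% of all genes were called, 0.921% higher and 3.38% lower. At an unadjusted p under 0.05 there were 12 members. The median log2 fold change was -0.35 for the members and -0.16 for all genes. Without TBI replicate 6 the call for Isg15 was lost (log2 fold change 1.45, adjusted p 0.0642 in place of 2.05 and 0.0459), and 5 members were called, all lower. No member was called when untreated replicate 2, 3 or 4 or TBI replicate 3 or 5 was left out, 1 without untreated replicate 1, 2 without IgG RIT replicate 1, and 9 without either CD45 RIT library.

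**Figure D3:**
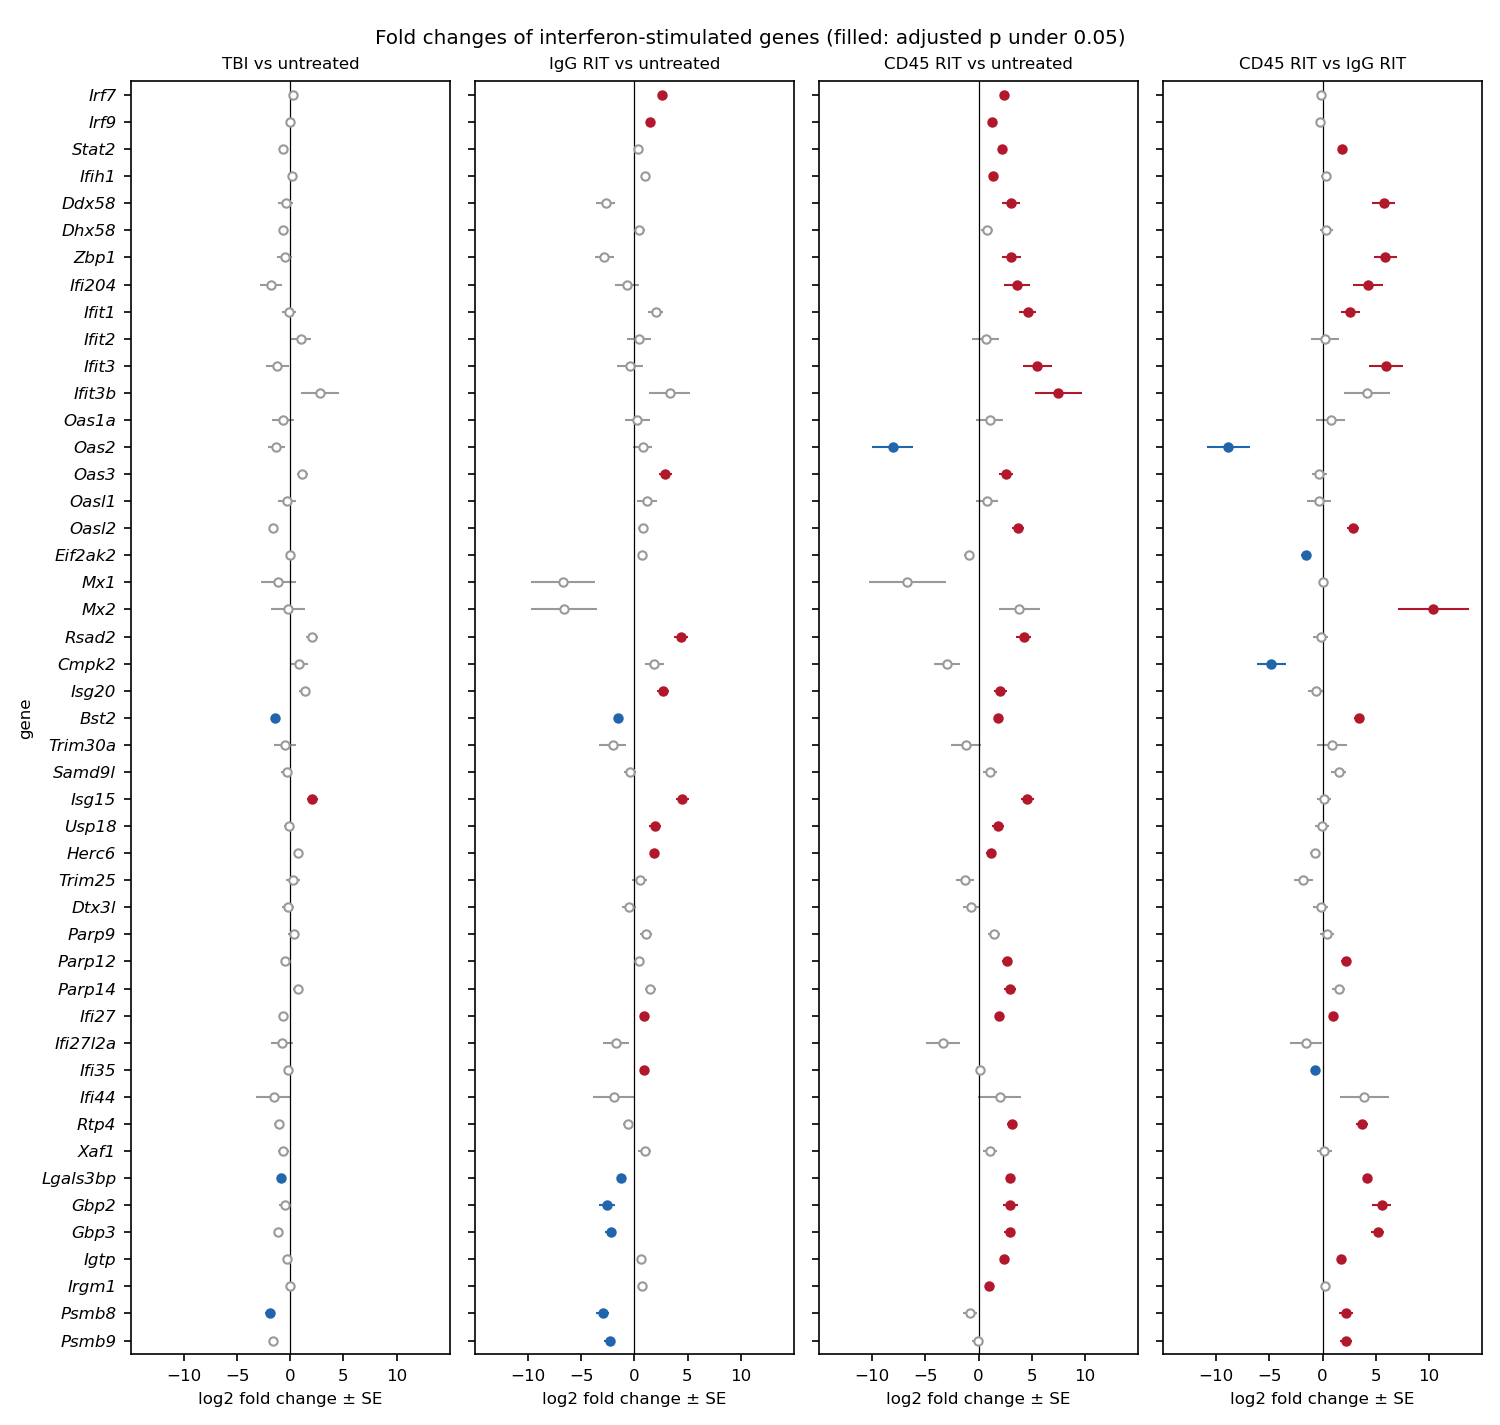
Log2 fold change of each of the 47 interferon-stimulated genes (points, with bars of 1 standard error) in 4 comparisons, from edgeR's quasi-likelihood fit; filled red and blue points have an adjusted p under 0.05. TBI against untreated has 4 filled points, IgG RIT 16 and CD45 RIT 28; the values of Mx1, Mx2 and Oas2 where a group is at 0 counts depend on the fit's prior count and are not sizes of change.

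Among the regulators, Irf7 (ENSMUSG00000025498.15, GRCm38 chromosome 7, 141262706 to 141266481, minus strand), which codes for the factor that amplifies interferon production, had 24.0, 24.4, 39.1 and 28.2 CPM in untreated replicates 1 to 4. It had 17.6, 33.9, 30.3 and 38.0 CPM in TBI replicates 1, 3, 4 and 5 and 48.2 CPM in TBI replicate 6. It had 161, 167 and 194 CPM in IgG RIT and 187 and 128 CPM in CD45 RIT libraries. Every RIT library was above every other library, and TBI overlapped untreated. The log2 fold change against untreated was 2.59 in IgG RIT (adjusted p 0.00153, SE 0.31), 2.44 in CD45 RIT (adjusted p 2.2e-04, SE 0.33) and 0.22 in TBI (adjusted p 0.774, SE 0.27). Irf7 overlaps Phrf1 on the other strand, and whether the authors' counting used strand is not stated, so reads of the overlap cannot be told apart.

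Irf9 (ENSMUSG00000002325.15, chromosome 14, 55603571 to 55610030), the DNA-binding part of the complex that binds the ISRE, had 65.7, 41.1, 82.6 and 74.4 CPM in untreated libraries and 49.3, 67.2, 64.6 and 72.1 CPM in TBI replicates 1, 3, 4 and 5. TBI replicate 6 had 63.7 CPM, the IgG RIT libraries 207, 161 and 189 CPM and the CD45 RIT libraries 134 and 179.5 CPM. Again the RIT libraries lay above all others, and TBI replicate 6 lay among the other TBI libraries. Irf9 rose by a log2 fold change of 1.49 in IgG RIT (adjusted p 0.00282, SE 0.24) and 1.25 in CD45 RIT (adjusted p 0.00336, SE 0.26) against untreated. It overlaps Rnf31 on the same strand, so some reads may belong to that gene.

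Stat2 (ENSMUSG00000040033.16, chromosome 10, 128270559 to 128292849), IRF9's partner in that complex, followed another order. It had 44.5, 21.3, 38.6 and 40.3 CPM in untreated libraries, 19.1, 28.1, 25.2 and 27.2 CPM in 4 TBI libraries, 13.6 CPM in TBI replicate 6, 44.0, 53.5 and 39.7 CPM in IgG RIT and 215 and 116 CPM in CD45 RIT libraries. IgG RIT overlapped untreated (log2 difference 0.34, SE 0.33, adjusted p 0.509), while CD45 RIT was above every other library and Stat2 rose against untreated by 2.19 (adjusted p 7.8e-04, SE 0.36).

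In the ISG15 system 3 of 5 genes rose in IgG RIT, and Isg15 had the largest rise of all 47 members there. Isg15 (ENSMUSG00000035692.7, chromosome 4, 156199455 to 156200796), a ubiquitin-like protein that is attached to other proteins, had 12.2, 9.76, 21.5 and 17.2 CPM in untreated libraries and 23.2, 50.3, 27.5 and 64.2 CPM in TBI replicates 1, 3, 4 and 5. TBI replicate 6 had 149 CPM, the IgG RIT libraries 344, 363 and 318 CPM and the CD45 RIT libraries 519.8 and 219 CPM. The order was untreated, then 4 TBI libraries, then TBI replicate 6, then all RIT libraries, with no overlap. The log2 fold change was 4.50 in IgG RIT (adjusted p 0.00184, SE 0.61) and 4.61 in CD45 RIT (adjusted p 2.6e-04, SE 0.64) against untreated.

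Usp18, which removes ISG15 and restrains the receptor, had 11.9 to 28.6 CPM in untreated, 17.5 to 25.1 CPM in TBI, with replicate 6 at 19.6 CPM, and 67.8, 92.0 and 91.2 CPM in IgG RIT libraries. The CD45 RIT libraries had 143 CPM, above the untreated range, and 13.4 CPM, inside it. Usp18 rose in IgG RIT (log2 fold change 1.93, SE 0.56, adjusted p 0.0348), and its call in CD45 RIT (1.83, SE 0.61, adjusted p 0.0352) rests on replicate 1, since without that library the log2 fold change was -0.72. Herc6, the mouse ligase for ISG15, had 9.70 to 17.2 CPM in untreated libraries, had 45.9, 35.3 and 48.7 CPM under IgG RIT and rose there by 1.87 (adjusted p 0.00732, SE 0.38). In CD45 RIT Herc6 had 21.5 and 31.5 CPM (1.16, SE 0.41, adjusted p 0.0470), a call lost without replicate 2 (0.82, adjusted p 0.231). Trim25 and Dtx3l, both ubiquitin ligases, were called in none of the 6 comparisons.

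Rsad2 (viperin, ENSMUSG00000020641.16, chromosome 12, 26442746 to 26456452), an enzyme that makes a chain-terminating nucleotide, had 51.0, 39.96, 107 and 83.4 CPM in untreated libraries. It had 104, 217, 164 and 239.8 CPM in 4 TBI libraries, 733 CPM in TBI replicate 6, 2063, 1206 and 1242 CPM in IgG RIT and 1932 and 749 CPM in CD45 RIT libraries. TBI replicate 6 stood above the other TBI libraries and just under the lowest RIT library. Rsad2 rose by 4.42 on the log2 scale in IgG RIT (adjusted p 0.00228, SE 0.66) and by 4.25 in CD45 RIT (adjusted p 6.9e-04, SE 0.68). Its TBI value of 2.05 (SE 0.56) had an adjusted p of 0.0605.

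Isg20 (ENSMUSG00000039236.18, chromosome 7, 78913424 to 78920396), an exonuclease that degrades viral RNA, had 164, 158, 177 and 156 CPM in untreated libraries, 218, 299.5, 259 and 309 CPM in 4 TBI libraries, 1010.5 CPM in TBI replicate 6 and 1151, 996 and 1039 CPM in IgG RIT libraries. The CD45 RIT libraries had 1146 and 201 CPM, so replicate 1 was at the IgG RIT level and replicate 2 lay between the untreated and TBI ranges. The log2 fold change against untreated was 2.697 in IgG RIT (adjusted p 0.00975, SE 0.58) and 2.04 in CD45 RIT (adjusted p 0.0243, SE 0.62). Without CD45 RIT replicate 1 the latter was 0.28 (adjusted p 0.71). The erythroid sum was likewise high in TBI replicate 6 (175775 CPM), IgG RIT (134051 to 142116 CPM) and CD45 RIT replicate 1 (191995 CPM), while CD45 RIT replicate 2 (47406 CPM) was above the other 4 TBI libraries in the erythroid sum and below them in Isg20. Its part in the Isg20 values was not tested.

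The remaining effectors did not move as a block. Bst2 (tetherin), which holds budding virus at the cell surface, had 41.9, 82.5, 66.0 and 64.9 CPM in untreated, 28.8, 20.96, 27.8 and 24.9 CPM in TBI, 14.1 CPM in TBI replicate 6, 11.3, 30.1 and 24.4 CPM in IgG RIT and 267 and 201 CPM in CD45 RIT libraries. It fell in TBI (log2 fold change -1.45, SE 0.31, adjusted p 0.0211) and IgG RIT (-1.54, SE 0.37, adjusted p 0.0156) and rose in CD45 RIT (1.87, SE 0.38, adjusted p 0.00310), with no overlap between these groups and untreated. Cmpk2, a mitochondrial nucleotide kinase that lies beside Rsad2 on chromosome 12, had 33.8 to 77.9 CPM in untreated, 50.4 to 87.0 CPM in 4 TBI libraries, 139 CPM in TBI replicate 6 and 197, 202 and 149 CPM in IgG RIT libraries, but 12.9 CPM and 0 counts in the CD45 RIT libraries. It was not called against untreated in any group and was lower in CD45 RIT than in IgG RIT (log2 fold change -4.83, SE 1.38, adjusted p 0.0166). Mx1 and Mx2, large antiviral GTPases, were near absent: Mx1 had at most 1.87 CPM in any library and no count in the RIT libraries. Mx2 had no count in the IgG RIT libraries or CD45 RIT replicate 2 and 14.02 CPM in CD45 RIT replicate 1, so its call in CD45 RIT against IgG RIT (adjusted p 0.0304, at least 43.7-fold higher in the mean) rests on 1 library. Eif2ak2, the kinase PKR that stops translation, had 15.7 to 30.5 CPM in untreated libraries, 42.3, 42.0 and 34.0 CPM in IgG RIT and 20.5 and 5.68 CPM in CD45 RIT libraries, and only CD45 RIT against IgG RIT was called (-1.59, SE 0.49, adjusted p 0.0227). That call did not hold in every fit that left out a single library (log2 fold change -2.80 to -1.17).

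Among the sensors, Ddx58 (RIG-I), which detects viral RNA ends, had 12.5, 10.2, 10.4 and 7.62 CPM in untreated, 6.94, 12.4, 7.30 and 8.81 CPM in 4 TBI libraries, 2.15 CPM in TBI replicate 6, 0.0579, 3.34 and 1.21 CPM in IgG RIT and 82.4 and 82.7 CPM in CD45 RIT libraries. The IgG RIT libraries were the lowest of the RIT and untreated groups and the CD45 RIT libraries the highest, though the IgG RIT value against untreated (-2.72, SE 0.87) had an adjusted p of 0.0504. In CD45 RIT Ddx58 rose by 3.02 against untreated (adjusted p 0.0180, SE 0.85) and by 5.74 against IgG RIT (adjusted p 0.00129, SE 1.05). Zbp1, a sensor of left-handed nucleic acid that can start cell death, had a like order, with 2.77 to 4.71 CPM in untreated libraries, 0, 0.498 and 1.16 CPM in IgG RIT and 23.7 and 43.7 CPM in CD45 RIT libraries; its rise there against untreated (3.09, SE 0.90, adjusted p 0.0206) had an adjusted p of 0.067 without replicate 2. Ifih1 (MDA5), a sensor of long double-stranded RNA, had 5.66 to 15.0 CPM in untreated libraries, 23.1, 26.2 and 21.6 CPM in IgG RIT and 30.9 and 28.1 CPM in CD45 RIT libraries; its rise was called in CD45 RIT (1.35, SE 0.40, adjusted p 0.0228), and the IgG RIT value was 1.03 (adjusted p 0.0730, SE 0.37). Ifi204, a DNA sensor, had 44.3 and 6.64 CPM in CD45 RIT and at most 3.56 CPM in any other library, and without CD45 RIT replicate 1 its value against untreated was 1.67 (adjusted p 0.316) in place of 3.62 (adjusted p 0.0387).

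Of the 4 Ifit genes, whose proteins bind foreign RNA and stop its translation, 2 (Ifit1 and Ifit3) were higher in CD45 RIT than in IgG RIT by the test, and without CD45 RIT replicate 1 the Ifit1 difference was 1.18 (adjusted p 0.303) in place of 2.62 (adjusted p 0.0304). Ifit1 (ENSMUSG00000034459.8, chromosome 19, 34640871 to 34650009) had 3.67, 2.24, 12.2 and 5.55 CPM in untreated, 2.27, 1.73, 6.68 and 4.85 CPM in 4 TBI libraries, 11.4 CPM in TBI replicate 6, 24.1, 21.1 and 26.7 CPM in IgG RIT and 239.9 and 54.5 CPM in CD45 RIT libraries. Ifit3 (ENSMUSG00000074896.3, chromosome 19, 34583531 to 34588731) had at most 4.31 CPM in the untreated, TBI and IgG RIT libraries and 87.4 and 111 CPM in the CD45 RIT libraries. Both stretches of sequence printed above for these genes hold 2 ISRE matches. Against untreated, Ifit1 rose by 4.64 (adjusted p 0.00129, SE 0.82) and Ifit3 by 5.55 (adjusted p 0.00993, SE 1.40) in CD45 RIT, and in IgG RIT the values were 2.02 (adjusted p 0.0739, SE 0.72) and -0.43 (adjusted p 0.841, SE 1.21). Ifit3b, a near copy of Ifit3 with which it may share reads, had 19.6 and 1.64 CPM in CD45 RIT libraries, and its call against untreated was lost without replicate 1 (adjusted p 0.103). Ifit2 was called in no comparison and had 28.8 CPM and 0 counts in CD45 RIT.

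Of the Oas genes, a family named for enzymes that make the signal that activates RNase L, Oas3 had 8.57, 3.38, 11.0 and 7.94 CPM in untreated, 8.46, 18.1, 8.64 and 19.3 CPM in 4 TBI libraries, 30.4 CPM in TBI replicate 6, 55.5, 57.4 and 60.1 CPM in IgG RIT and 79.0 and 13.4 CPM in CD45 RIT libraries. It rose by 2.90 in IgG RIT (adjusted p 0.00938, SE 0.62) and by 2.58 in CD45 RIT (adjusted p 0.0105, SE 0.66) against untreated, the latter 0.78 (adjusted p 0.317) without CD45 RIT replicate 1. Oasl2 had 7.42 to 22.8 CPM in untreated, 2.55 to 7.11 CPM in TBI, 33.6, 30.9 and 12.2 CPM in IgG RIT and 159 and 214 CPM in CD45 RIT libraries and rose in CD45 RIT (3.71, SE 0.53, adjusted p 3.0e-04). Oas2 had no count in either CD45 RIT library (0 in each), against 0.0693 to 2.33 CPM in untreated and 1.45, 2.79 and 2.84 CPM in IgG RIT libraries. By group means and a floor of 3 counts per library, it was at least 8.39-fold lower in CD45 RIT than in untreated and at least 14.4-fold lower than in IgG RIT. Untreated replicate 4 had 2 counts, itself under that floor, so the bound does not hold against that library. Oas1a and Oasl1 were called in no comparison, and each had 1 CD45 RIT library near 0 and 1 above the untreated range.

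The Parp genes, which include a family of ADP-ribosyltransferases, rose in CD45 RIT for Parp12 (2.65, SE 0.46, adjusted p 0.00108), with 46.3 and 119 CPM against 8.32 to 21.2 CPM in untreated libraries, and for Parp14 (2.98, SE 0.56, adjusted p 0.00193), with 13.5 and 87.0 CPM against 4.03 to 10.3 CPM. The Parp14 value was 1.06 (adjusted p 0.080) without CD45 RIT replicate 2. Parp9 had 12.2 and 117 CPM in CD45 RIT and 49.98, 47.7 and 49.8 CPM in IgG RIT against 11.8 to 32.2 CPM in untreated libraries, and was called in no comparison. Parp9 and Dtx3l overlap on opposite strands, so their reads may be mixed.

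Of the 7 further inducible genes, Ifi27 (ENSMUSG00000064215.13, chromosome 12, 103434211 to 103440239), a small protein of mitochondria and the nuclear envelope, had 68.0, 109.5, 98.4 and 81.6 CPM in untreated, 45.1, 63.8, 59.5 and 73.8 CPM in 4 TBI libraries, 37.5 CPM in TBI replicate 6, 148, 178 and 191 CPM in IgG RIT and 399 and 274 CPM in CD45 RIT libraries. IgG RIT stood above untreated and TBI, and CD45 RIT above IgG RIT, with no overlap. Ifi27 rose by 0.95 in IgG RIT (adjusted p 0.0247, SE 0.25) and by 1.91 in CD45 RIT (adjusted p 3.3e-04, SE 0.28) against untreated. Ifi35, a binding partner of NMI, had 67.0 to 78.0 CPM in untreated, 54.5 to 63.7 CPM in TBI, 102, 141 and 142 CPM in IgG RIT and 86.9 and 65.9 CPM in CD45 RIT libraries. It was the only one of the 10 members that rose in IgG RIT to lie lower in CD45 RIT than in IgG RIT by the test (-0.75, SE 0.22, adjusted p 0.0180). That call did not hold in every fit that left out a single library (log2 fold change -0.97 to -0.67).

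Lgals3bp (ENSMUSG00000033880.11, chromosome 11, 118392751 to 118402092), a secreted glycoprotein that binds galectin, had 153, 166, 142 and 155 CPM in untreated, 82.9, 85.6, 109.7 and 97.2 CPM in 4 TBI libraries, 54.0 CPM in TBI replicate 6, 62.9, 80.0 and 54.6 CPM in IgG RIT and 1284 and 1058 CPM in CD45 RIT libraries. It fell in TBI (-0.84, SE 0.19, adjusted p 0.0280) and IgG RIT (-1.23, SE 0.23, adjusted p 0.00516) and rose in CD45 RIT (2.93, SE 0.24, adjusted p 7.5e-06). The stromal sum had the same order of groups, 1160 to 2721 CPM in TBI and 455 to 1403 CPM in IgG RIT against 36711 and 64674 CPM in CD45 RIT, and its part was not tested. Rtp4, a receptor transport protein, rose in CD45 RIT (3.15, SE 0.51, adjusted p 6.9e-04) with 124 and 169 CPM against 12.8 to 23.0 CPM in untreated libraries.

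The GTPases and immunoproteasome subunits are best known as targets of interferon gamma. Gbp2, which attacks membranes around intracellular microbes, had 6.05, 15.4, 13.5 and 13.4 CPM in untreated, 7.54, 8.20, 11.1 and 12.2 CPM in 4 TBI libraries, 4.24 CPM in TBI replicate 6, 1.04, 0.498 and 4.57 CPM in IgG RIT and 51.6 and 142 CPM in CD45 RIT libraries. It fell in IgG RIT (-2.56, SE 0.73, adjusted p 0.0321) and rose in CD45 RIT (3.00, SE 0.72, adjusted p 0.00784). Gbp3 did likewise, with 13.1 to 18.9 CPM in untreated libraries, 3.07, 5.63 and 2.00 CPM in IgG RIT and 50.1 and 207 CPM in CD45 RIT libraries (-2.24, SE 0.51, adjusted p 0.0127, and 2.93, SE 0.52, adjusted p 0.00126). Igtp and Irgm1, GTPases that act on the vacuoles of microbes, were called higher only in CD45 RIT among the comparisons with untreated (2.37, SE 0.28, adjusted p 8.0e-05, and 0.95, SE 0.30, adjusted p 0.0286). Every IgG RIT library also lay above every untreated one for both genes, though neither difference was called. Their IgG RIT levels were 30.6, 40.2 and 36.8 CPM for Igtp and 102, 98.0 and 84.6 CPM for Irgm1. Igtp had 129 and 113 CPM in CD45 RIT against 20.1 to 28.9 CPM in untreated libraries, and it overlaps Irgm2 on the same strand. Irgm1 had 152 and 71.8 CPM against 40.7 to 68.5 CPM, and its value was 0.30 (adjusted p 0.395) without CD45 RIT replicate 1. The Gbp2 rise was 2.07 (adjusted p 0.0551) without replicate 2.

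Psmb8 (ENSMUSG00000024338.15, chromosome 17, 34197721 to 34201454), a catalytic subunit of the immunoproteasome that cuts peptides for antigen presentation, had 332, 432, 378 and 317 CPM in untreated and 117, 114, 98.9 and 127 CPM in 4 TBI libraries. TBI replicate 6 had 18.7 CPM, the IgG RIT libraries 31.4, 24.6 and 81.7 CPM and the CD45 RIT libraries 138 and 291 CPM. Every treated library was below every untreated one, and TBI replicate 6 was the lowest of all 14. Psmb8 fell in TBI (-1.94, SE 0.49, adjusted p 0.0452) and IgG RIT (-2.99, SE 0.62, adjusted p 0.00824). Its partner Psmb9 had 107 to 135 CPM in untreated, 44.4 to 54.7 CPM in 4 TBI libraries, 8.54 CPM in TBI replicate 6 and 14.8, 29.0 and 28.4 CPM in IgG RIT libraries, and fell in IgG RIT (-2.32, SE 0.53, adjusted p 0.0123). Progenitor marker sums were also lower in TBI and IgG RIT, at 9386 to 11560 CPM in untreated, 768 to 1480 CPM in 4 TBI libraries, 168 CPM in TBI replicate 6 and 585 to 776 CPM in IgG RIT, but they were 216 and 112 CPM in CD45 RIT, where Psmb8 was above every TBI and IgG RIT library. Their part was not tested. Psmb8 overlaps Gm20496, and Psmb9 overlaps Tap1, on the opposite strand.

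**Figure D4:**
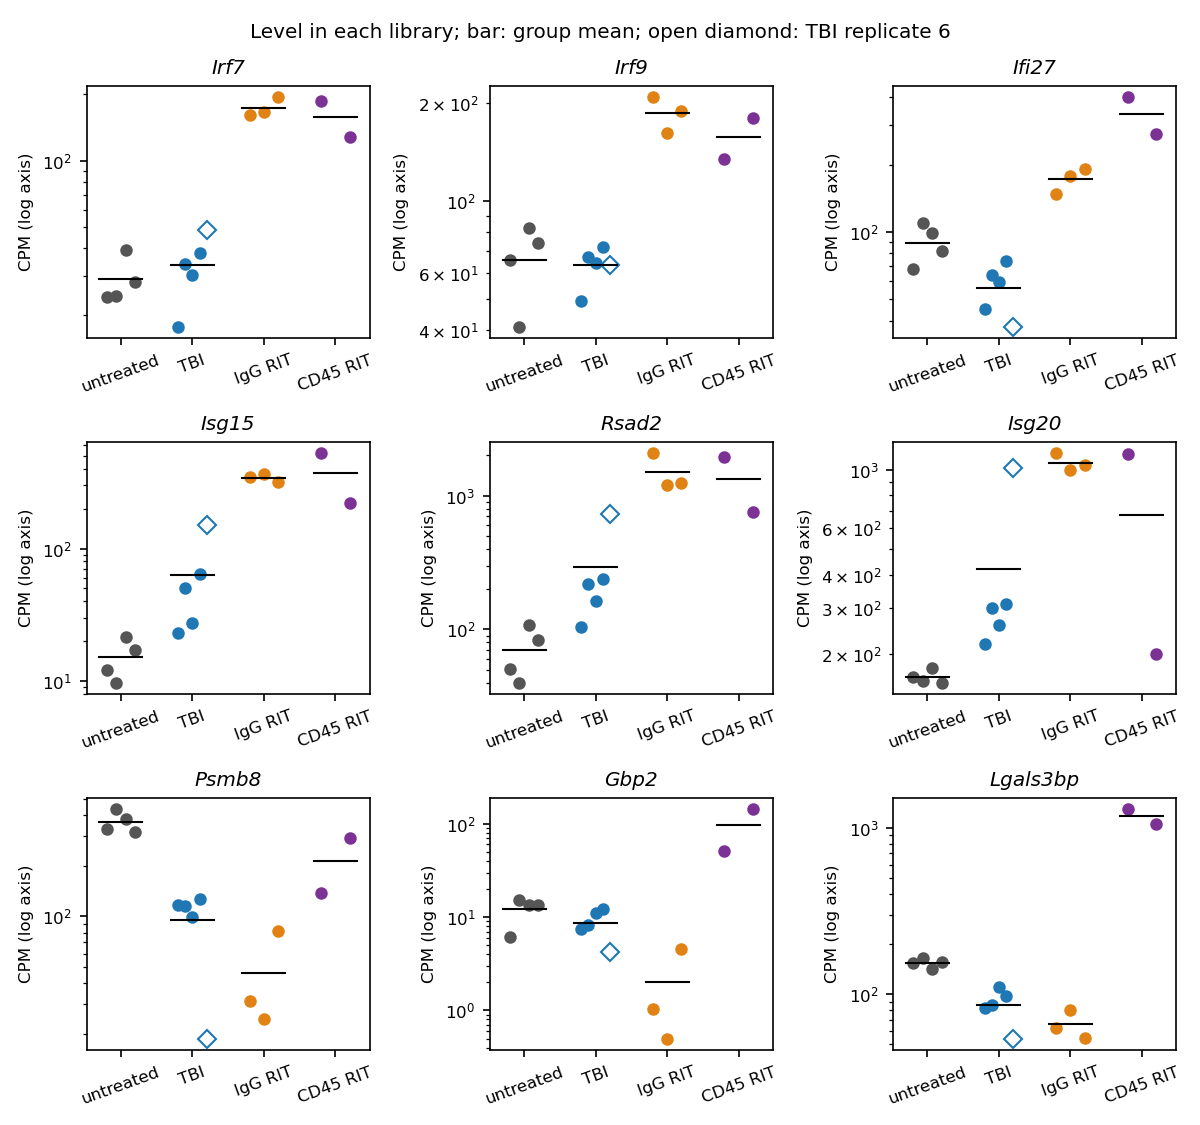
CPM (log axes) of 9 interferon-stimulated genes in each library by group; bars are group means, the TBI mean including replicate 6, and the open diamond is TBI replicate 6. For Irf7, Irf9 and Ifi27 the diamond sits under all IgG RIT points (48.2 against 161 to 194 CPM for Irf7), for Isg20 it sits among the IgG RIT points (1010.5 against 996 to 1151 CPM), and for Psmb8 it is the lowest point.

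IgG RIT, the non-targeted antibody, and TBI, the external exposure, were then compared directly. Irf7 (2.37, SE 0.29, adjusted p 0.0176), Ifi27 (1.62, SE 0.24, adjusted p 0.0180), Irf9 (1.55, SE 0.22, adjusted p 0.0176) and Ifi35 (1.08, SE 0.17, adjusted p 0.0215) were higher in IgG RIT, and no member was lower. These 4 members (8.51%) compare with 0.242% of all genes called, 0.0697% higher and 0.172% lower, or 52 genes in all. At an unadjusted p under 0.05 there were 24 members. The median log2 fold change was 0.78 for the members and -0.16 for all genes. Without TBI replicate 6, 13 members were called, all higher in IgG RIT, and Isg15 (3.05, SE 0.42, adjusted p 0.00255) and Rsad2 (3.05, SE 0.44, adjusted p 0.00312) joined them. Without IgG RIT replicate 2, no member was called, without TBI replicate 1, 3 or 4, 1 was, and without IgG RIT replicate 1, 2 were. The calls also depended on CD45 RIT libraries, which share the estimate of spread: 15 members were called without CD45 RIT replicate 1 and 16 without replicate 2.

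TBI replicate 6, whose erythroid sum (175775 CPM) was above that of every IgG RIT library, is shown apart. Its CPM was below all 3 IgG RIT libraries in 32 of the 47 members (68.1%), within their range in 13 and above them in 2, while the share of all tested genes below was 24%. All 3 IgG RIT libraries were above all 5 TBI libraries in 24 members (51.1%), against 8.37% of all genes, and below all 5 in 0 members, against 8.44%. For Irf7 the value in TBI replicate 6 was 48.2 CPM and the lowest IgG RIT value 161 CPM; for Irf9 63.7 and 161 CPM; for Ifi27 37.5 and 148 CPM; and for Usp18 19.6 and 67.8 CPM. In contrast, Isg20 did not separate (1010.5 CPM against 996 CPM). In Irf9 and Usp18 TBI replicate 6 lay within the range of the other TBI libraries, in Irf7 above it and in Ifi27 below it. TBI replicate 6 is 1 library, so these counts describe it and carry no test.

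By the library numbers in the labels, all RIT libraries and TBI replicate 6 are 10 and above, and the other 8 libraries are 9 or lower. The labels do not say that the numbers mark a batch. With a term for that split, which only TBI replicate 6 separates from treatment, 0 members and 19 genes in all were called in IgG RIT against untreated. The log2 fold changes there were 1.90 for Irf7 (adjusted p 0.329, SE 0.52), 1.48 for Irf9 (adjusted p 0.415, SE 0.45), 2.65 for Isg15 (adjusted p 0.415, SE 0.79), 1.64 for Ifi27 (adjusted p 0.268, SE 0.42) and -0.38 for Psmb8 (SE 0.66). In CD45 RIT against untreated 9 members were called, all higher, among them Lgals3bp, Bst2, Stat2, Ifi27 and Gbp3. Between IgG RIT and TBI, 0 members were called with the term and 0 among the libraries numbered 10 and above, where TBI has replicate 6 alone and the log2 differences were 1.80 for Irf7 (SE 0.40), 1.49 for Irf9 (SE 0.36), 2.15 for Ifi27 (SE 0.42) and 0.97 for Ifi35 (SE 0.43), each with an adjusted p of 1.0.

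CD45 RIT and IgG RIT differed in which members were high. Lgals3bp (4.15, SE 0.28, adjusted p 1.7e-06), Gbp3 (5.17, SE 0.62, adjusted p 7.3e-05), Bst2 (3.41, SE 0.43, adjusted p 1.0e-04), Gbp2, Ddx58, Zbp1, Ifit3, Stat2 and both immunoproteasome subunits were among 18 members higher in CD45 RIT, and Oas2, Cmpk2, Eif2ak2 and Ifi35 were lower. The calls of Eif2ak2 and Ifi35 did not hold in every fit that left out a single library. Without CD45 RIT replicate 2 the calls of Psmb8 (1.38, adjusted p 0.153), Psmb9 (1.39, adjusted p 0.0917) and Parp12 (1.12, adjusted p 0.105) were lost, and without replicate 1 those of Ifit1, Ifi27 (0.66, adjusted p 0.128), Ifi204 (2.34, adjusted p 0.192) and Mx2. In this comparison 37.7% of all genes were called, 20.2% higher and 17.5% lower, against 46.8%, 38.3% and 8.51% of the members. For Irf7 (-0.14, SE 0.36, adjusted p 0.784), Irf9 (-0.24, SE 0.28, adjusted p 0.519), Isg15 (0.11, SE 0.66, adjusted p 0.922) and Rsad2 (-0.17, SE 0.72, adjusted p 0.887) no difference between the RIT groups passed the test, and the SEs leave room for differences in either direction. Among the libraries numbered 10 and above alone, which hold all 5 RIT libraries, 3 members were called, including Lgals3bp (4.10, adjusted p 0.0224) and Bst2 (3.35, adjusted p 0.0448). Against TBI, which shares no control with the untreated comparison but shares its CD45 RIT libraries, 26 members were higher in CD45 RIT and 2, Oas2 and Cmpk2, were lower, where 38.6% of all genes were called, 19.6% higher and 19% lower. The calls of Oas2, Cmpk2, Parp14, Irgm1, Psmb9, Usp18, Rsad2 and Ifih1 did not hold in every fit that left out a single library. The lowest log2 fold change over these fits was 0.20 for Parp14, 0.32 for Irgm1, 0.78 for Psmb9 and 1.35 for Rsad2.

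Across members the 2 CD45 RIT libraries often lay apart. Replicate 1, with 191995 CPM of erythroid and 36711 CPM of stromal markers, had the higher level of Isg15, Rsad2, Isg20, Usp18, Oas3, Ifit1, Stat2, Bst2, Lgals3bp and Irgm1. Replicate 2, with 47406 and 64674 CPM of these markers, had the higher level of Gbp2, Gbp3, Parp9, Parp12, Parp14, Psmb8, Irf9 and Oasl2. These members are examples named after their values were seen, and the part of the marker levels was not tested. Trim30a, Ifit2, Cmpk2 and Mx2 had counts in replicate 1 and none in replicate 2, and Oas1a had none in replicate 1. Fewer genes had any count in CD45 RIT replicates 1 and 2 (20994 and 17700) than in the other libraries (21660 to 26752). The part of this in the zeros of single members, Oas2 and Cmpk2 among them, was not tested. Levels per length can be compared between genes. The highest means per kilobase of exon were Isg20 (571 CPM per kb) and Isg15 (486) in IgG RIT, Isg15 (525.6) and Lgals3bp (411) in CD45 RIT, Isg20 (225) and Isg15 (89.4) in TBI, and Psmb8 (108) and Isg20 (88.0) in untreated libraries. The TBI means include replicate 6, and without it they were 146 for Isg20 and 58.7 for Isg15.

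Other genes of the pathway were taken from a list of 54, of which 31 were tested. None of the 21 interferon genes passed the filter. Ifnb1, the first type I interferon made in most cells, had 0 counts in all 14 libraries, so did each of the 13 listed Ifna genes, and Ifng had at most 5 counts. Ifnl2, a type III interferon, had 90 counts (5.49 CPM) in CD45 RIT replicate 1 and 0 elsewhere. Of the receptors, Ifngr1, the ligand-binding chain for interferon gamma, had 169 to 292 CPM in untreated, 110 to 140 CPM in 4 TBI libraries, 43.4 CPM in TBI replicate 6, 37.7, 35.2 and 51.2 CPM in IgG RIT and 603 and 878 CPM in CD45 RIT libraries. It fell in TBI (-1.19, SE 0.29, adjusted p 0.0392) and IgG RIT (-2.51, SE 0.36, adjusted p 0.00213) and rose in CD45 RIT (1.66, SE 0.36, adjusted p 0.00447). Ifnar1, a chain of the type I receptor, was called in no comparison, and CD45 RIT replicate 2 had only 7 counts of it against 830 in replicate 1.

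Irf1, the main factor downstream of interferon gamma, had 39.6 to 71.2 CPM in untreated libraries, 4.98, 4.03 and 14.6 CPM in IgG RIT and 173 and 428 CPM in CD45 RIT libraries. In IgG RIT against untreated 0 of the 31 pathway genes rose and 9 (29.0%) fell (Ifngr1, Ifngr2, Stat3, Irf1, Irf8, Tmem173, Socs1, Ptpn2 and Ptpn6), beside 5.75% and 10.7% of all genes. The counts in the other comparisons were 0 higher and 1 lower in TBI against untreated (0.921% and 3.38% of all genes), 12 and 2 in CD45 RIT against untreated (38.7% and 6.45% beside 14.5% and 18.6%), 17 and 2 in CD45 RIT against IgG RIT (54.8% and 6.45% beside 20.2% and 17.5%), and 15 and 1 in CD45 RIT against TBI (48.4% and 3.23% beside 19.6% and 19%). In IgG RIT against TBI edgeR's quasi-likelihood test called 0, with 9 at an unadjusted p under 0.05. Tmem173 (STING), the adaptor of DNA sensing, had 43.8 to 57.7 CPM in untreated libraries against 5.21, 9.02 and 18.0 CPM under IgG RIT, and Irf8, a factor of myeloid and dendritic cells, 208 to 231 and 13.0, 13.5 and 66.7 CPM. Markers of plasmacytoid dendritic cells, the main source of type I interferon in blood, summed to 23.5 to 37.1 CPM in untreated libraries, 1.05 to 4.99 CPM in IgG RIT and 34.3 and 48.7 CPM in CD45 RIT libraries, and their part in these values was not tested. In CD45 RIT that sum came from Pacsin1 (561 and 1304 counts) and Ccr9 (239 and 0), while Siglech (0 and 2) and Cox6a2 (1 and 0), which had 303 to 491 and 346 to 413 counts in untreated libraries, were at or near 0.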

How the data were processed

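RNA of sorted cells was amplified with SMART-Seq v4 and made into libraries with Nextera XT, per the labels' protocols. The authors deposited raw counts per gene for 14 libraries, with gene coordinates and lengths. STAR 2.7.7a, FastQC 0.11.9, edgeR 3.36.0 and the build hg38 are named in the submitters' processing notes, while the table holds mouse genes: 54587 of 54587 identifiers shared with GENCODE M21 had its GRCm38 coordinates. Strand use and the counting tool are not given in the sources used here.

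Counts were fitted with edgeR 4.0.16 (R 4.3.3, limma 3.58.1; TMM factors, filterByExpr with a minimum count of 10 and a total of 15, robust glmQLFit) over all 14 libraries, with 1 coefficient per group and 6 contrasts. P-values were adjusted by Benjamini-Hochberg over 21509 genes and called under 0.05, 2-sided. The SE is the size of the log2 fold change over the root of F. CPM of single genes uses TMM-scaled totals, and sums over the members or over markers use total counts. Libraries of a group differed by more than sampling noise. Floors cover counting error only, since reads carried no molecular identifiers.

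Members and lists were chosen with earlier results of these data known. Members named by rule are Irf7, Irf9, Stat2, the member with most reads in each role, and the 2 called members that rose most and the 2 that fell most in each contrast. For some of these, such as Irgm1, Parp9, Oasl2, Oas2, Mx2, Ifit3 and Ifi204, only ranges or some of the groups are given. Other members are named after their values were seen. Pathway genes are named where called in IgG RIT against untreated or TBI, plus Ifnar1, Ifnb1 and Ifng (1 further gene is not reported here), and Ifnl2 was added after its values were seen. Alternatives were RLE or no scaling, no filter, DESeq2 1.42.0, a replicate block, only the groups compared, library numbers as a term or a subset, and leaving out each library.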

Additional observations from a re-analysis of the deposited data

Results flagged for a closer look

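Among 84 sets of values (a named gene or marker sum in the untreated or TBI group), 11 had 1 library far from the others by Dixon's criterion, where chance alone gives about 1 in 20. TBI replicate 6 was that library in 7 of the 11. It had 733 CPM of Rsad2 (others 104 to 239.8), 1010.5 CPM of Isg20 (others 218 to 309) and 1.79 CPM of Ifit3b (others 0 to 0.237), all on the high side. It had 18.7 CPM of Psmb8 (others 98.9 to 127) and 8.54 CPM of Psmb9 (others 44.4 to 54.7), on the low side. The same library had the highest erythroid marker sum of its group, 175775 CPM (others 25540 to 44386), and the lowest endothelial sum, 68.6 CPM (others 139.9 to 156).

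TBI replicate 3 had 25.1 CPM of Usp18 (others 17.5 to 19.6). Untreated replicate 3 had 78.0 CPM of Ifi35 (others 67.0 to 68.7) and 17.2 CPM of Herc6 (others 9.70 to 10.6). Untreated replicate 4 had 1.63 CPM of Mx2 (others 0 to 0.269).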

How the results depend on the processing

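Of 112 results followed for named genes, 100 were called; 100 of 100 kept their call with DESeq2, 99 with RLE factors, 91 with no filter on low counts, 79 with no scaling factors, 68 of 99 with only the 2 groups compared, 46 of 100 with the library-number term, 3 of 52 among libraries numbered 10 and above, and 1261 of 1400 fits that left out 1 library. Calls of members in TBI against untreated were 8 with DESeq2, 10 with only the 2 groups and 0 to 9 without 1 library, against 4. In IgG RIT against untreated, 16 became 25 with only the 2 groups, 0 with the library-number term and 11 to 28 without 1 library, and with no scaling factors the 15 calls were 7 higher and 8 lower. In CD45 RIT against untreated, 28 became 17 with only the 2 groups, 9 with the library-number term and 22 to 32 without 1 library. In IgG RIT against TBI, 4 became 19 with DESeq2, 13 with only the 2 groups, 0 with the library-number term, 0 among libraries numbered 10 and above and 0 to 16 without 1 library. In CD45 RIT against IgG RIT, 22 became 8 with only the 2 groups, 3 among libraries numbered 10 and above and 16 to 29 without 1 library. In CD45 RIT against TBI, 28 became 17 with the library-number term, 0 among libraries numbered 10 and above and 24 to 31 without 1 library. Where only 1 library of a group was left, it was assumed to vary like the other groups. The cause of these shifts was not tested, beyond the fewer libraries of some fits.

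Replicate numbers did not pair the libraries: 1 of 13 same-numbered pairs had a correlation of deviations over 0.1, and 3 of 12 libraries correlated best with their own number. With the replicate block, members called were 0 in TBI against untreated, 12 in IgG RIT against untreated, 18 in CD45 RIT against untreated, 3 in IgG RIT against TBI, 15 in CD45 RIT against IgG RIT and 15 in CD45 RIT against TBI, and 61 of the 100 named results kept their call. With the replicate block the log2 fold change of Irf7 was -0.20 in TBI against untreated and 0.0427 in CD45 RIT against IgG RIT, both opposite in sign.

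The median log2 fold change of all genes in IgG RIT against untreated was -0.42 with TMM, -0.21 with RLE and -0.94 with no scaling factors. Signs turned for small values. Irf9 in TBI against untreated was 0.0593 with RLE, 0.0648 with no filter, 0.0593 with DESeq2, 0.0646 with only the 2 groups, and -0.229 to 0.0696 without 1 library. Stat2 in IgG RIT against untreated was -0.18 with no scaling factors, and Psmb9 there was 0.16 with the library-number term. Isg15 in CD45 RIT against IgG RIT was -0.0939 with no scaling factors, -0.0833 with no filter and -0.65 to 0.38 without 1 library, the lowest without CD45 RIT replicate 1. Rsad2 there was -1.01 to 0.13 without 1 library, positive without IgG RIT replicate 1 or CD45 RIT replicate 2. Usp18 in CD45 RIT was -0.72 to 2.66 against untreated and -0.58 to 2.705 against TBI without 1 library, negative without CD45 RIT replicate 1. The count of members with every IgG RIT library above every TBI library, whose alternatives were chosen after seeing the data, was 24 with RLE, 14 with no scaling factors and 24 to 28 without 1 library. Depth limits members near the floor, such as Mx1, Mx2, Oas2 and Ifit3b.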
